A study of Homo sapiens with 6 samples.

Results

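Glycolysis and the hypoxia response were followed here through 36 genes, picked by symbol from the 61517 genes of a count table. The cells were THP-1, which derive from a human monocytic leukaemia. The 36 genes comprise 18 enzymes of the path between glucose and lactate, 3 regulators of that flux (PFKFB3, PFKFB4 and PDK1), 4 genes of the hypoxia-inducible factor (HIF) system (HIF1A, EPAS1, EGLN1 and EGLN3) and 11 genes outside glycolysis that HIF is known to induce. Of the 6 libraries, 3 came from cells given the JAK1 and JAK2 inhibitor ruxolitinib, titled RUX+ and entered in the treatment field as Lukotinib. The other 3 libraries, titled RUX- and called control here, came from cells without the drug. According to the series' text, both groups were THP-1 cells turned into macrophages and then driven into pyroptosis, a lytic inflammatory cell death, with ATP and lipopolysaccharide (LPS), so the controls were stimulated too. The differentiating agent, the doses, the exposure times and the oxygen level of the cultures were not given in the sources used here, THP-1 is a single line, and unstimulated cells were not analysed here.

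Glycolysis splits glucose into pyruvate and yields ATP without oxygen, and lactate dehydrogenase then turns pyruvate into lactate and returns the NAD+ that the path consumes. HIF is a pair of DNA-binding proteins, an alpha subunit (HIF1A or EPAS1) and ARNT. In the presence of oxygen the prolyl hydroxylases of the EGLN family mark the alpha subunit for VHL-directed destruction, so HIF activity is set largely at the protein level and is not read directly from the HIF1A transcript. In macrophages LPS is known to raise glycolysis and to stabilise HIF1A, and most glycolytic enzyme genes are themselves HIF targets.

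Total counts ranged from 18796476 to 19253534 in the ruxolitinib libraries and from 17757595 to 24533979 in the control libraries. Pairs of libraries correlated at 0.988 to 0.991 inside a group and at 0.972 to 0.976 across groups, over genes on the log2 scale. Levels are given as CPM, the counts scaled to a common library total. Of 10 monocyte and macrophage markers, 10 were above 1 CPM on average, and their summed level was 2517 to 2582 CPM with ruxolitinib and 3847 to 3912 CPM in control. CTSB held the largest part of that sum (1134 CPM with ruxolitinib and 1765 CPM in control), LYZ went the other way (30 CPM with ruxolitinib and 26.0 CPM in control), and TYROBP differed little (122 CPM with ruxolitinib and 140 CPM in control). The 4 T-cell markers summed to 4.56 to 5.91 CPM with ruxolitinib and 5.60 to 6.38 CPM in control, nearly all from TRAC, with CD3D and CD3E at 0. The summed level was 0.536 to 0.644 CPM with ruxolitinib and 0.732 to 0.996 CPM in control for 4 B-cell markers, and 0.590 to 1.02 CPM with ruxolitinib and 0.901 to 1.75 CPM in control for 5 epithelial or fibroblast markers. The 4 erythroid markers summed to 0 CPM with ruxolitinib and to at most 0.0434 CPM in control, with HBB and KLF1 at 0. In bulk RNA, fewer cells of a type and less RNA per cell cannot be told apart, and the part of the lower macrophage marker level in the results below was not tested. The labels do not say whether the 3 libraries of a group were grown separately, so the p-values reflect the spread among these libraries alone, and that spread may be technical.

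Most genes of the group that changed were higher with ruxolitinib, by modest amounts. Of the 34 members with enough counts to test, 18 rose, 2 fell and 14 did not pass an adjusted p of 0.05 by edgeR's quasi-likelihood test with Benjamini-Hochberg adjustment over all 14051 genes tested. Across those 14051 genes 13.6% rose and 16.1% fell (29.7% in either direction). The median log2 fold change was 0.28 over the 34 members and -0.01 over all genes tested. The 3 ruxolitinib libraries lay above the 3 control libraries without overlap for 21 of the 34 and below them for 2, against 20.5% and 23.8% of all genes tested (44.2% in either direction). Without the batch 1 libraries of both groups, 14 members rose and 2 fell, and without those of batch 2, 22 rose and 3 fell. Over all genes tested under the same settings, 5.85% rose and 7.96% fell without batch 1, and 18.1% rose and 17.6% fell without batch 2. The adjusted p-values of genes given below come from this same edgeR test unless another is named, and fold changes are ruxolitinib over control.

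Glycolytic enzymes and the other HIF targets each held more rises than falls. Among 17 tested enzymes 10 rose, 0 fell and 7 did not pass, with a median log2 fold change of 0.25. By DESeq2 the enzyme count was also 10 higher and 0 lower, and at an unadjusted edgeR p under 0.05 it was 11 higher and 0 lower. Over all genes tested, DESeq2 called fewer higher and fewer lower than edgeR did. The share of all genes at an unadjusted p under 0.05 is not given, so counts at that threshold have no comparison. Among the 11 other HIF targets 6 rose, 1 fell and 4 did not pass, with a median of 0.32. The difference between the groups of genes was not tested. Summed levels are given as a percentage of the scaled library total, not of the raw total. On that scale the 18 enzymes together held 1.34%, 1.37% and 1.29% in the ruxolitinib libraries and 1.09%, 1.05% and 1.10% in the control libraries. The 11 other HIF targets held 0.222%, 0.222% and 0.219% with ruxolitinib and 0.170%, 0.176% and 0.173% in control, and neither summed share overlapped between the groups.

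**Figure D1:**
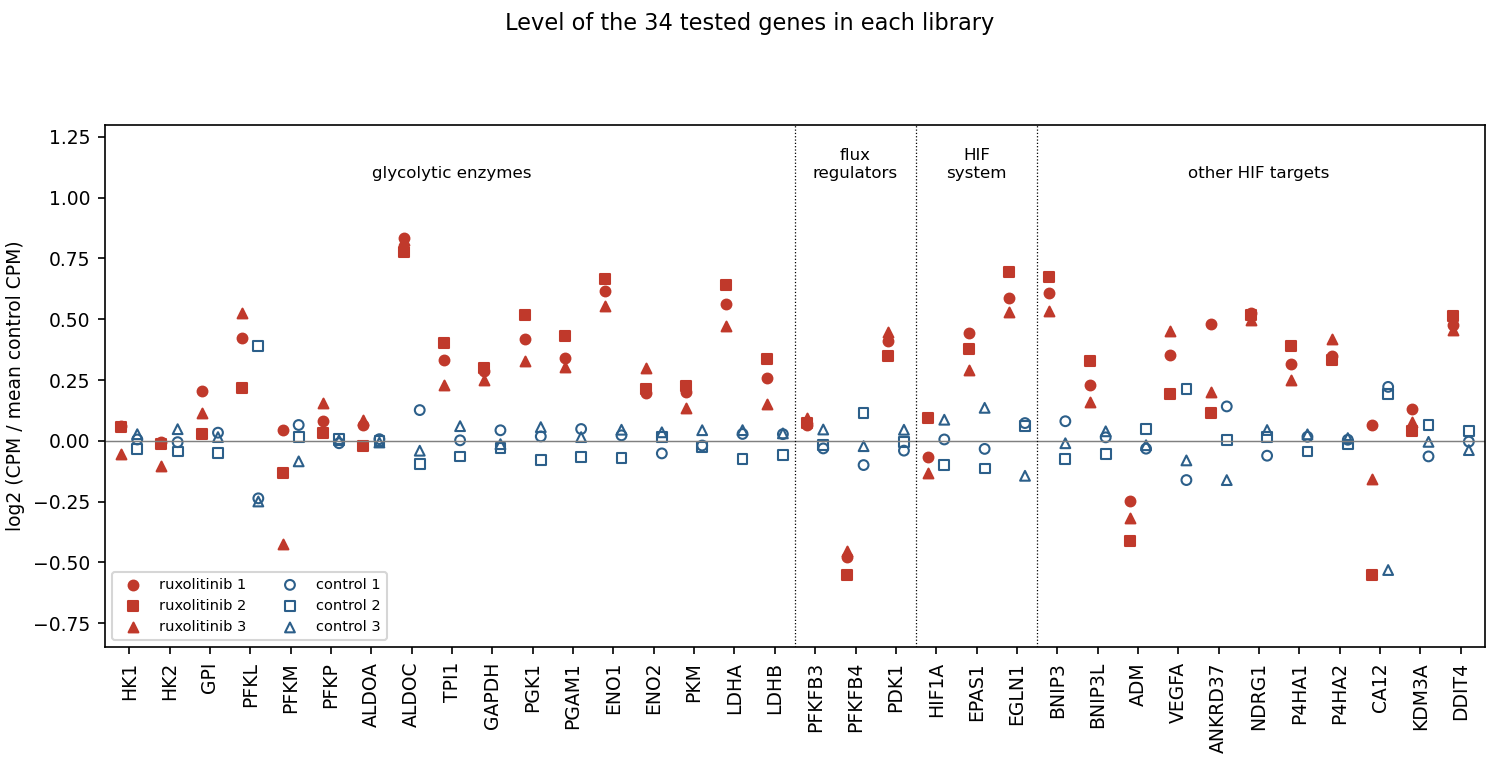
Level of each of the 34 tested genes in every library, as log2 of the CPM over the mean control CPM, with ruxolitinib libraries as filled red symbols and control libraries as open blue symbols; the symbol shape gives the replicate number. Red points lie above all blue points from ALDOC to LDHB, and below them at PFKFB4 and ADM; at PFKL the second control library (open square) lies among the ruxolitinib libraries.

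The first steps of the path moved little. HK2, the inducible hexokinase that traps glucose as its 6-phosphate, had 357, 355 and 334 CPM with ruxolitinib and 357, 348 and 371 CPM in control (log2 fold change -0.04 ± 0.05, SE, adjusted p = 0.571). HK1, the housekeeping hexokinase, had 92.4, 92.3 and 85.3 CPM with ruxolitinib and 89.0, 86.7 and 90.4 CPM in control (0.02 ± 0.05, adjusted p = 0.788). Both hexokinases therefore overlapped between the groups. Phosphoglucose isomerase (GPI), which makes fructose 6-phosphate, averaged 171 ± 10.4 CPM with ruxolitinib and 158 ± 4.75 CPM in control (SD, n = 3 each) and missed the threshold (adjusted p = 0.117). GPI passed as higher once ruxolitinib replicate 2 was dropped (0.029), once both batch 2 libraries were dropped (0.0263) and with upper-quartile scaling (0.0492).

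The phosphofructokinases commit sugar to glycolysis, and none of the 3 passed. PFKP, the platelet-type form, had 110, 107 and 116 CPM with ruxolitinib and 103, 105 and 104 CPM in control. Its groups did not overlap, yet the log2 fold change was only 0.09 ± 0.05 (adjusted p = 0.179). PFKM, the muscle form, had 3.94, 3.48 and 2.85 CPM with ruxolitinib and 4.0, 3.87 and 3.61 CPM in control (-0.16 ± 0.17, adjusted p = 0.527). PFKL, the liver form, had 44.4, 38.4 and 47.6 CPM with ruxolitinib and 28.1, 43.3 and 27.8 CPM in control, so that 1 control library lay among the treated ones (log2 fold change 0.39 ± 0.21, adjusted p = 0.233).

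The aldolases, which cut the sugar into a pair of triose phosphates, diverged. ALDOC, the form best known from brain, had 42.8, 41.1 and 42.5 CPM with ruxolitinib and 26.2, 22.5 and 23.3 CPM in control. Its groups were far apart, with a log2 fold change of 0.82 ± 0.07 (1.76-fold, adjusted p = 3.76e-06), the largest rise among the 34 tested members. ALDOA, the much more abundant form, averaged 874 ± 33.5 CPM with ruxolitinib and 848 ± 4.02 CPM in control (0.04 ± 0.04, adjusted p = 0.5).

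From triose phosphate isomerase onward, the enzymes rose together. TPI1, that isomerase, had 573, 601 and 534 CPM with ruxolitinib and 456, 435 and 474 CPM in control (log2 fold change 0.32 ± 0.05, adjusted p = 0.000683). GAPDH, the oxidising step, had 3268, 3295 and 3192 CPM with ruxolitinib and 2762, 2624 and 2654 CPM in control (0.28 ± 0.04, adjusted p = 0.000473). GAPDH is widely used as a reference gene, and here all 3 treated libraries lay above all 3 controls. PGK1, the first ATP-yielding kinase, had 1041, 1114 and 977 CPM with ruxolitinib and 789, 738 and 810 CPM in control (0.42 ± 0.06, adjusted p = 0.000138). PGAM1, the phosphoglycerate mutase, averaged 526 ± 23.7 CPM with ruxolitinib and 409 ± 16.6 CPM in control (0.36 ± 0.05, adjusted p = 0.000171). Neither pair of groups overlapped.

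Enolase and lactate dehydrogenase showed the next largest rises of the path after ALDOC. ENO1, the main enolase, had 1144, 1182 and 1094 CPM with ruxolitinib and 757, 710 and 769 CPM in control (log2 fold change 0.61 ± 0.05, 1.53-fold, adjusted p = 2.04e-06). LDHA, the subunit that favours lactate production, had 1707, 1801 and 1604 CPM with ruxolitinib and 1178, 1097 and 1191 CPM in control (0.56 ± 0.05, 1.48-fold, adjusted p = 9.66e-06). In both genes the lowest treated library exceeded the highest control library by a wide margin. Within the batches, LDHA differed by 0.54, 0.72 and 0.43 and ENO1 by 0.60, 0.74 and 0.51 on the log2 scale.

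PKM, ENO2 and LDHB rose less, and their calls were less secure. PKM, pyruvate kinase, had 3152, 3202 and 3010 CPM with ruxolitinib and 2703, 2692 and 2823 CPM in control (log2 fold change 0.19 ± 0.05, adjusted p = 0.00843). PKM no longer passed when the batch entered as a block (adjusted p = 0.0779), nor without ruxolitinib replicate 1 (0.0583), control replicate 1 (0.0605) or the batch 1 pair (0.245). The neuronal-type enolase ENO2 had 34.1, 34.4 and 36.6 CPM with ruxolitinib and 28.7, 30 and 30.5 CPM in control (0.24 ± 0.06, adjusted p = 0.0137), and missed the threshold when control replicate 1 (0.0611), the batch 1 pair (0.147) or the batch 3 pair (0.0819) was dropped. LDHB, the subunit that favours pyruvate, averaged 239 ± 15.3 CPM with ruxolitinib and 201 ± 7.06 CPM in control (0.25 ± 0.05, adjusted p = 0.00414, or 0.084 with the batch 1 pair dropped).

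Read along the path, the textbook preparatory phase (hexokinase to TPI1) held 2 rises among 9 tested genes, with a median log2 fold change of 0.09. The payoff phase together with lactate dehydrogenase held 8 rises among 8, with a median of 0.32. Of all genes tested, 13.6% rose. This split was made after the values had been seen and carries no test.

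**Figure D2:**
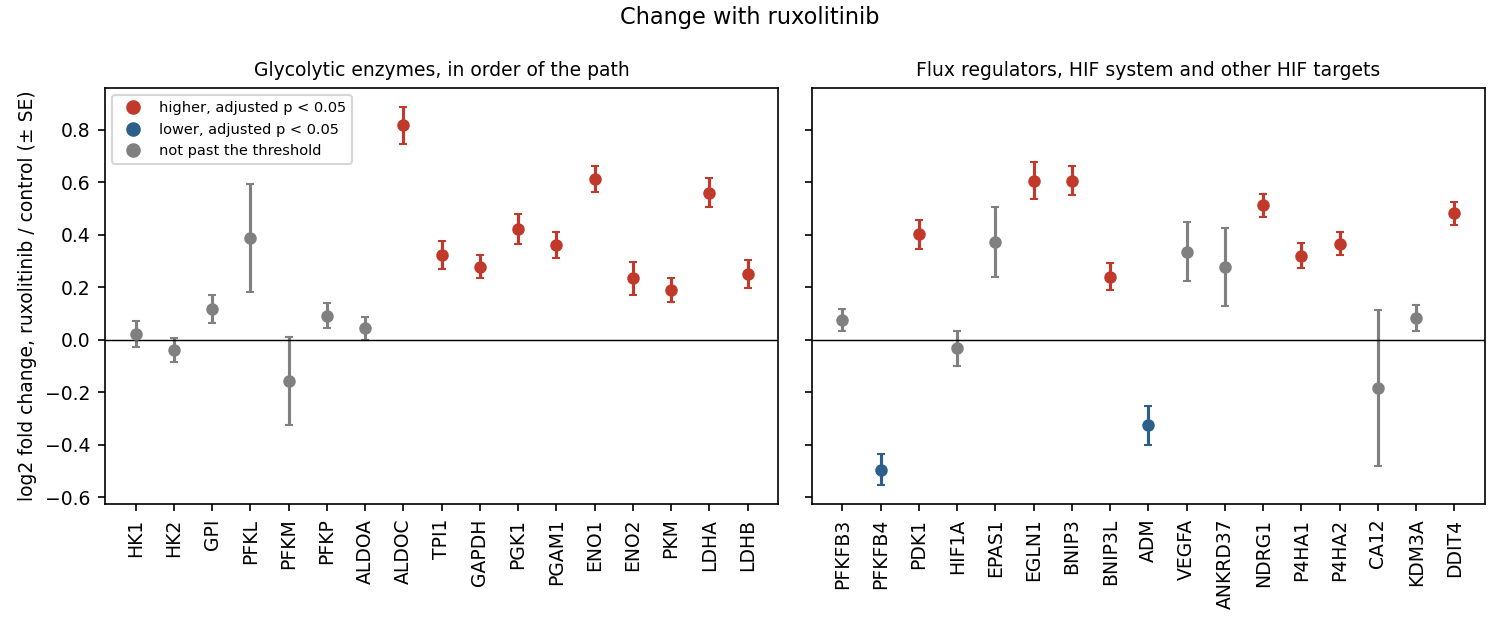
Log2 fold change (ruxolitinib over control, points) with its SE (bars) for the tested glycolytic enzymes in the order of the path, on the left, and for the flux regulators, HIF system genes and other HIF targets, on the right. Red points passed an adjusted p of 0.05 as higher, blue as lower, grey did not pass; on the left the red points begin at ALDOC (0.82) and run to LDHB (0.25).

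Where a step has several isoenzymes, levels were compared per kilobase of exon, and each gene's share of its step was taken within a library, so that library scaling cancels. The length joined all annotated exons of a gene and may exceed that of the transcript expressed. The size of a share depends on it. LDHA held 77.3%, 77.3% and 77.5% of the lactate dehydrogenase level with ruxolitinib and 73.4%, 73.2% and 73.6% in control, a difference of 3.99 percentage points. ALDOC held 6.07%, 6.17% and 5.94% of the aldolase level with ruxolitinib and 3.95%, 3.42% and 3.56% in control. The ENO2 share of enolase was 3.65% ± 0.264 with ruxolitinib and 4.69% ± 0.251 in control. Each of these shares kept the groups apart, and each had an exact two-sided permutation p of 0.1, the smallest that 3 against 3 libraries allow. HK2 held 80.0% ± 0.141 of the hexokinase level with ruxolitinib and 80.6% ± 0.283 in control (exact two-sided permutation p = 0.1). PFKL held 17.2% ± 1.01 of the phosphofructokinase level with ruxolitinib and 14.3% ± 3.18 in control, and its groups overlapped (exact two-sided permutation p = 0.4).

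**Figure D3:**
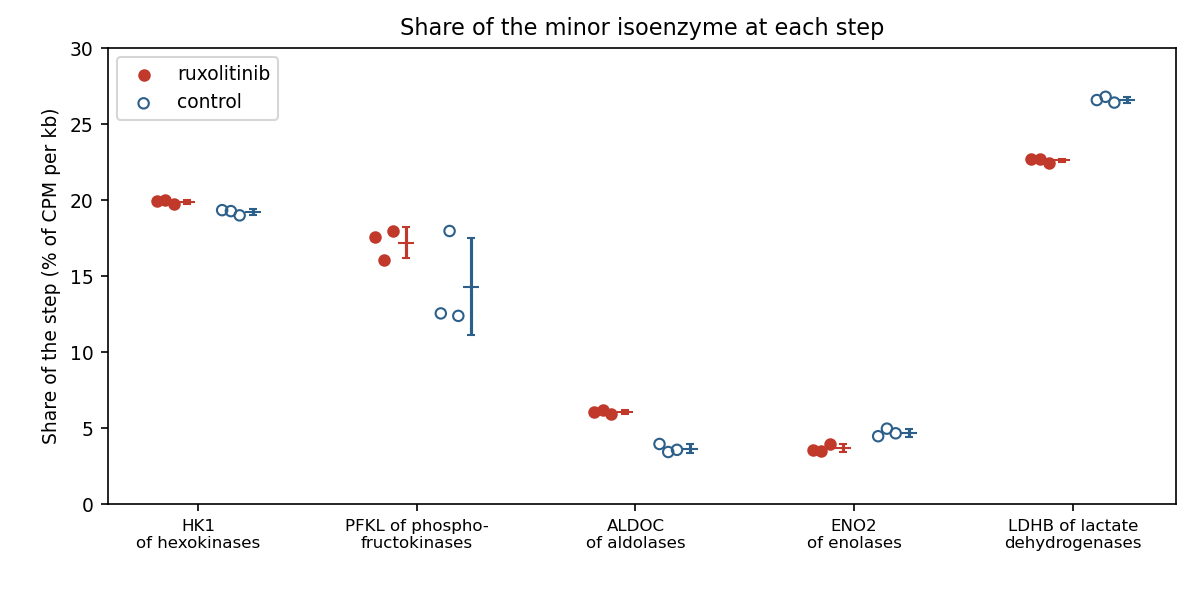
Share of 1 isoenzyme in the summed CPM per kilobase of exon of its step, per library (circles) with the mean and SD beside them, ruxolitinib in filled red and control in open blue. LDHB averaged 22.6% with ruxolitinib and 26.6% in control, ALDOC 6.06% with ruxolitinib and 3.64% in control, and the PFKL groups overlap.

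On the same per-kilobase scale, GAPDH was the most abundant of the 36 genes, at 1091 ± 17.9 CPM per kilobase with ruxolitinib and 899 ± 24.2 in control, followed by PKM at 364 ± 11.6 with ruxolitinib and 320 ± 8.51 in control. In control, TPI1 (169 ± 7.30) and PGAM1 (159 ± 6.45) differed by little more than their spread, while HIF1A (141 ± 9.04), PGK1 (141 ± 6.69) and ENO1 (141 ± 5.95) differed by less than theirs. That spread covers libraries only, and the order of genes also depends on the exon lengths taken. The lowest levels in control were those of HK3, CA12 and, lowest of all, EGLN3. HK3, the myeloid hexokinase, had 7, 7 and 6 counts with ruxolitinib and 6, 26 and 9 in control, too few to test.

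The flux regulators did not move together. PFKFB4, a bifunctional enzyme that sets fructose 2,6-bisphosphate and thereby phosphofructokinase activity, had 104, 99 and 106 CPM with ruxolitinib and 135, 157 and 143 CPM in control. It fell clear of the control range, by 0.49 ± 0.06 on the log2 scale (adjusted p = 6.06e-05). Its relative PFKFB3, the form with the strongest kinase activity, had 269, 271 and 275 CPM with ruxolitinib and 252, 255 and 266 CPM in control (0.08 ± 0.04, adjusted p = 0.209). PDK1, which shuts pyruvate out of the mitochondrial pyruvate dehydrogenase complex, had 53.8, 51.6 and 55.2 CPM with ruxolitinib and 39.4, 40.3 and 41.8 CPM in control, and rose by 0.40 ± 0.06 on the log2 scale (adjusted p = 0.000197).

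In the HIF system, the transcript of HIF1A itself overlapped between groups, at 696, 777 and 664 CPM with ruxolitinib and 732, 681 and 774 CPM in control (log2 fold change -0.03 ± 0.07, adjusted p = 0.753). Without both batch 2 libraries HIF1A passed as lower (-0.15, adjusted p = 0.00827), and the sign turned under 4 other alternatives. EGLN1, the main oxygen-sensing prolyl hydroxylase and itself a HIF target, had 58.4, 63.0 and 56.1 CPM with ruxolitinib and 40.9, 40.6 and 35.2 CPM in control. It rose by 0.61 ± 0.07 on the log2 scale (1.52-fold, adjusted p = 5.23e-05). EPAS1, the HIF-2 alpha subunit, was low, at 6.51, 6.22 and 5.85 CPM with ruxolitinib and 4.68, 4.42 and 5.26 CPM in control. Those groups did not overlap, but the adjusted p was 0.0534 (0.0494 by limma-voom and 0.036 with upper-quartile scaling). EGLN3, another hydroxylase and a strong HIF target in many cells, had 0, 1 and 3 counts with ruxolitinib and 0, 2 and 0 in control, where a count of 0 in ruxolitinib replicate 1 allows up to 0.156 CPM and in control replicate 1 up to 0.169 CPM, covering counting error only.

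Among the other HIF targets, BNIP3, a receptor for the removal of mitochondria, had 196, 205 and 186 CPM with ruxolitinib and 136, 122 and 128 CPM in control (log2 fold change 0.61 ± 0.05, adjusted p = 5.73e-06). Its relative BNIP3L had 425, 455 and 405 CPM with ruxolitinib and 366, 349 and 372 CPM in control (0.24 ± 0.05, adjusted p = 0.0039, or 0.088 with the batch 1 pair dropped). NDRG1, a stress-induced cytoplasmic protein, had 365, 362 and 358 CPM with ruxolitinib and 243, 256 and 261 CPM in control (0.51 ± 0.04, adjusted p = 3.93e-06). DDIT4, an inhibitor of mTORC1, had 229, 234 and 226 CPM with ruxolitinib and 164, 169 and 160 CPM in control (0.48 ± 0.04, adjusted p = 6.37e-06). In each of these 4 genes the treated libraries all lay above the controls.

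P4HA1 and P4HA2, the catalytic subunits of collagen prolyl 4-hydroxylase, rose by 0.32 ± 0.05 (adjusted p = 0.000356) and 0.37 ± 0.04 (adjusted p = 6.52e-05) on the log2 scale. P4HA2 had 213, 210 and 224 CPM with ruxolitinib and 168, 165 and 168 CPM in control. ADM, which encodes the vasodilator peptide adrenomedullin, went the other way, with 19.7, 17.6 and 18.8 CPM with ruxolitinib and 22.9, 24.3 and 23.2 CPM in control (-0.33 ± 0.07, adjusted p = 0.00594). KDM3A, a histone demethylase, averaged 152 ± 4.83 CPM with ruxolitinib and 143 ± 6.47 CPM in control (0.08 ± 0.05, adjusted p = 0.238), and passed as higher without both batch 2 libraries (0.0271). ANKRD37, a small ankyrin-repeat protein, averaged 6.05 ± 0.828 CPM with ruxolitinib and 5.01 ± 0.523 CPM in control (0.28 ± 0.15, adjusted p = 0.186). CA12, a membrane carbonic anhydrase, had the lowest CPM of the 34 tested members, 1.10 ± 0.229 CPM with ruxolitinib and 1.26 ± 0.336 CPM in control (-0.18 ± 0.30, adjusted p = 0.691).

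VEGFA, the vascular growth factor, had 334, 298 and 357 CPM with ruxolitinib and 233, 303 and 247 CPM in control (log2 fold change 0.34 ± 0.11, adjusted p = 0.0697). As with PFKL, the second control library lay among the treated ones. Within the batches, VEGFA differed by 0.52, -0.02 and 0.53 and PFKL by 0.66, -0.17 and 0.77 on the log2 scale. Without control replicate 2, VEGFA rose by 0.45 (adjusted p = 0.000249) and PFKL by 0.63 (adjusted p = 4.84e-05). VEGFA also passed by DESeq2 (0.000255), with no filter on low counts (8.97e-08) and with median-ratio (0.02) or upper-quartile scaling (0.046). Across 13875 tested genes with a transcript sequence, the deviation of that library from the other controls had a Pearson correlation of 0.39 with transcript GC content. The same correlation was 0.03, -0.19 and 0.17 in the ruxolitinib libraries and -0.22 in each of the other controls, and these values share libraries and are a description only. The transcripts of PFKL and VEGFA had median GC contents of 63.6% and 57.2%, at percentiles 95.6 and 78.0 of the tested genes. The other members with the highest GC percentiles were DDIT4 (97.9), ALDOA (89.2), PFKFB3 (88.1) and HK3 (87.7). In control, DDIT4 had 164, 169 and 160 CPM, ALDOA 852, 849 and 844 CPM and PFKFB3 252, 255 and 266 CPM. HK3 had 6, 26 and 9 counts there. The part of GC content in these results was not tested.

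Promoters are shown for the 5 members with the largest log2 rises and for the 2 that fell, because HIF is known to bind the core letters ACGTG or GCGTG. Windows came from RefSeq on GRCh38.p14, and 33 of the 36 members were matched, all but BNIP3L, NDRG1 and VEGFA. Only the 250 bases before each start are printed, with core letters on either strand in capitals. They span chr17:28576896-28577145 (minus strand) for ALDOC, chr1:8878687-8878936 (minus) for ENO1, chr10:131981924-131982173 (minus) for BNIP3 and chr1:231422288-231422537 (minus) for EGLN1. LDHA has a pair of annotated starts, with windows chr11:18394313-18394562 and chr11:18396101-18396350 (both plus). The windows of the genes that fell are chr3:48556804-48557053 (minus) for PFKFB4 and chr11:10304823-10305072 (plus) for ADM.
ALDOC: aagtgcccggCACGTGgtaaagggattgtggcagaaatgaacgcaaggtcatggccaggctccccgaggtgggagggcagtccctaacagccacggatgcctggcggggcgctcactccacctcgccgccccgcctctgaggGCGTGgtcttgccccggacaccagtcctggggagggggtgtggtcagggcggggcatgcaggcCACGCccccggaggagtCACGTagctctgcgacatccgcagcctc
ENO1: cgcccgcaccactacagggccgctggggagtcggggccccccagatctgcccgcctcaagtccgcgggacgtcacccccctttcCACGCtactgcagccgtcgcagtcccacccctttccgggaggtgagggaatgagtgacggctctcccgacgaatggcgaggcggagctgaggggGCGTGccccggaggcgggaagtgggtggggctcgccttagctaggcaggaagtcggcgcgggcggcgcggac
LDHA upstream start: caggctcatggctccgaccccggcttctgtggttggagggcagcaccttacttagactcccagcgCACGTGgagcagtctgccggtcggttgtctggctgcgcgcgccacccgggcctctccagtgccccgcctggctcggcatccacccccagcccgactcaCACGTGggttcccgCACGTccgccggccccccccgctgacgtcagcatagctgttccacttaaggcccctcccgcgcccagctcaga
LDHA downstream start: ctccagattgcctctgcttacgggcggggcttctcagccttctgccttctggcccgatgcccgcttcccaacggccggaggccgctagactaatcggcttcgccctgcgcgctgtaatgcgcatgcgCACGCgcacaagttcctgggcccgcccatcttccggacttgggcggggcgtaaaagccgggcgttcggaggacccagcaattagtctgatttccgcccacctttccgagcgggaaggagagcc
BNIP3: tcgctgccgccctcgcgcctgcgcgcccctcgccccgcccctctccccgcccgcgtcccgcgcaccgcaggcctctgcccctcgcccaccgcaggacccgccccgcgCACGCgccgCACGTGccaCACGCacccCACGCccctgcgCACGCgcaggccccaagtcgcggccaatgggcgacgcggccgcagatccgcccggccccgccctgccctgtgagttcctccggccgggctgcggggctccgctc
EGLN1: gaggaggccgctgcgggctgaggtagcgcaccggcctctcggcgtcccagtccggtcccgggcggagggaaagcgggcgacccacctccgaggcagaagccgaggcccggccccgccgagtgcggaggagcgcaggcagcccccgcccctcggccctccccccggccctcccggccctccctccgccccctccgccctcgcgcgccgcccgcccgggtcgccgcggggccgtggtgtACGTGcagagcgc
PFKFB4: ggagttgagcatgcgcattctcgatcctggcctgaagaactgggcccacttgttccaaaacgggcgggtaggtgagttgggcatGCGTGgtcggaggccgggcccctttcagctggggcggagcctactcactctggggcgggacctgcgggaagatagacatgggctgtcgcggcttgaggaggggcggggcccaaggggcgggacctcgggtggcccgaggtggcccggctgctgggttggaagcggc
ADM: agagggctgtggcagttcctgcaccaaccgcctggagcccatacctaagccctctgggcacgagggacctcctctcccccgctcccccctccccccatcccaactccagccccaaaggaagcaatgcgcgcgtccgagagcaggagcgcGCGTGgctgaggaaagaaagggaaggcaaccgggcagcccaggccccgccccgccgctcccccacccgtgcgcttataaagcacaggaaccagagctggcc

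All 8 windows shown held at least 1 core, including those of the genes that fell. ALDOC, BNIP3 and the upstream LDHA window also held CACGTG, a palindrome that counts as ACGTG on both strands and is the letter pattern of the E-box. EGLN1 carried its single ACGTG at position -13 from the start, and PFKFB4 and ADM had GCGTG at positions -166 and -101. ENO1, which rose, also held GCGTG only, at positions -166 and -72. Over windows running from 250 bases before to 50 after the start, ACGTG stood in at least 1 window of 11 of the 16 matched genes that rose, 7 of 13 that did not pass and 0 of 2 that fell. By gene, 32.2% of tested genes with a promoter and 24.9% of all genes in the promoter table held it. GCGTG stood in 9 of the 16 that rose, 9 of 13 that did not pass and 2 of 2 that fell, against 58.1% of tested genes. Either core was found in 14 of the 16 that rose, 13 of 13 that did not pass and 2 of 2 that fell, against 69.7% of tested genes. The STAT letters TTCNNNGAA, a palindrome, were found for 2 of the 33 matched members, HK1 and PDK1, against 8.83% of tested genes. Genes with several annotated starts had more windows in which to match, and a match is a description of letters, not of binding.

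Genes next to these pathways gave a mixed picture. Their lists and those further below were drawn up by function, with earlier results of these data known. For comparison, 13.6% of all genes tested rose and 16.1% fell by edgeR. DESeq2 called fewer of all genes in each direction, and the share at an unadjusted p is not given. Of 5 sugar and lactate transporters 3 rose and 0 fell by edgeR (0 also by DESeq2, and 1 lower at an unadjusted p under 0.05). SLC2A1, the GLUT1 glucose transporter, averaged 428 ± 12.0 CPM with ruxolitinib and 357 ± 5.71 CPM in control (log2 fold change 0.26 ± 0.04, adjusted p = 0.000608, or 0.0506 with the batch 1 pair dropped). SLC2A6, a lysosomal hexose transporter of macrophages, had 24.4, 23.4 and 24.2 CPM with ruxolitinib and 12.5, 18.5 and 13.9 CPM in control (adjusted p = 0.00299, or 0.0605 with the batch 3 pair dropped). The lactate transporter SLC16A1 averaged 93.4 ± 6.76 CPM with ruxolitinib and 78.8 ± 2.16 CPM in control (adjusted p = 0.00729, or 0.0751 with the batch 1 pair dropped). Only 11 of 20 further glycolysis genes could be tested, and of these 7 rose and 2 fell. PDK3, a pyruvate dehydrogenase kinase, rose by 0.77 ± 0.09 on the log2 scale, the mitochondrial pyruvate carrier subunit MPC2 by 0.42 ± 0.05 and the phosphopentomutase PGM2 by 0.45 ± 0.06. ADPGK, an ADP-dependent glucokinase named after its values were seen, was among those that fell (-0.22 ± 0.05 on the log2 scale, adjusted p = 0.00273). With the batch 1 pair dropped, 0 of these further glycolysis genes passed as lower.

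The pentose phosphate and mitochondrial branches are set here against all genes tested, of which 13.6% rose and 16.1% fell. The difference was not tested. Of 7 pentose phosphate genes 1 rose, the transketolase TKT, at 254 ± 2.07 CPM with ruxolitinib and 170 ± 5.28 CPM in control (log2 fold change 0.58 ± 0.04, adjusted p = 1.3e-06). RPE, an epimerase, stood at -0.15 ± 0.06 (log2, adjusted p = 0.103) and TALDO1, transaldolase, -0.10 ± 0.05 (adjusted p = 0.142). With library totals alone both passed as lower (adjusted p = 0.0404 for RPE and 0.0318 for TALDO1), and TALDO1 also did so without both batch 2 libraries (0.00177). Of 23 genes of pyruvate dehydrogenase and the TCA cycle 5 rose, 1 fell and 17 did not pass, with a median of 0.07. DLD, the shared dehydrogenase subunit, rose by 0.30 ± 0.07 on the log2 scale (adjusted p = 0.00578, or 0.0728 with the batch 1 pair dropped), and SUCLG2, a succinyl-CoA ligase subunit, fell by 0.69 ± 0.09 on the log2 scale. The TCA count of rises was 1 without both batch 1 libraries, 2 without ruxolitinib replicate 1 and 8 with upper-quartile scaling. Of all genes tested, 5.85% rose without batch 1 and 1321 of 14397 without ruxolitinib replicate 1. With upper-quartile scaling more than 13.6% of all genes rose, so the TCA count moved in the same direction as all genes.

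Of 20 tested genes outside the 36 that are also known as HIF-induced, edgeR called 8 higher and 0 lower, and the median was 0.25 on the log2 scale. Over all genes tested, edgeR called 13.6% higher and 16.1% lower. DESeq2 called fewer of all genes in each direction, and the share at an unadjusted p is not given. The lower count of these 20 genes was also 0 at an unadjusted p under 0.05, by DESeq2 and under the other alternatives run. PLOD2, a lysyl hydroxylase of collagen, had 55.9 ± 3.09 CPM with ruxolitinib and 27.3 ± 1.65 CPM in control (1.03 ± 0.07, adjusted p = 3.18e-07). AK4, a mitochondrial adenylate kinase, had 113 ± 3.98 CPM with ruxolitinib and 61.6 ± 2.80 CPM in control (0.88 ± 0.05), and GBE1, the glycogen branching enzyme, 149 ± 8.23 CPM with ruxolitinib and 96.0 ± 3.87 CPM in control (0.64 ± 0.05). CA9, a classical hypoxia marker, had no count in any library. Among 4 tested genes of the rest of the HIF system 0 rose by edgeR (0 also by DESeq2 and at an unadjusted p under 0.05) and 1 fell. It was HIF1AN, the asparaginyl hydroxylase that blocks HIF coactivator binding (-0.20 ± 0.07, adjusted p = 0.0409), a call lost under 11 of 17 alternatives, the batch block among them (0.09). VHL had -0.10 ± 0.11 (adjusted p = 0.54) and the hydroxylase EGLN2 -0.09 ± 0.14 (adjusted p = 0.669).

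**Figure D4:**
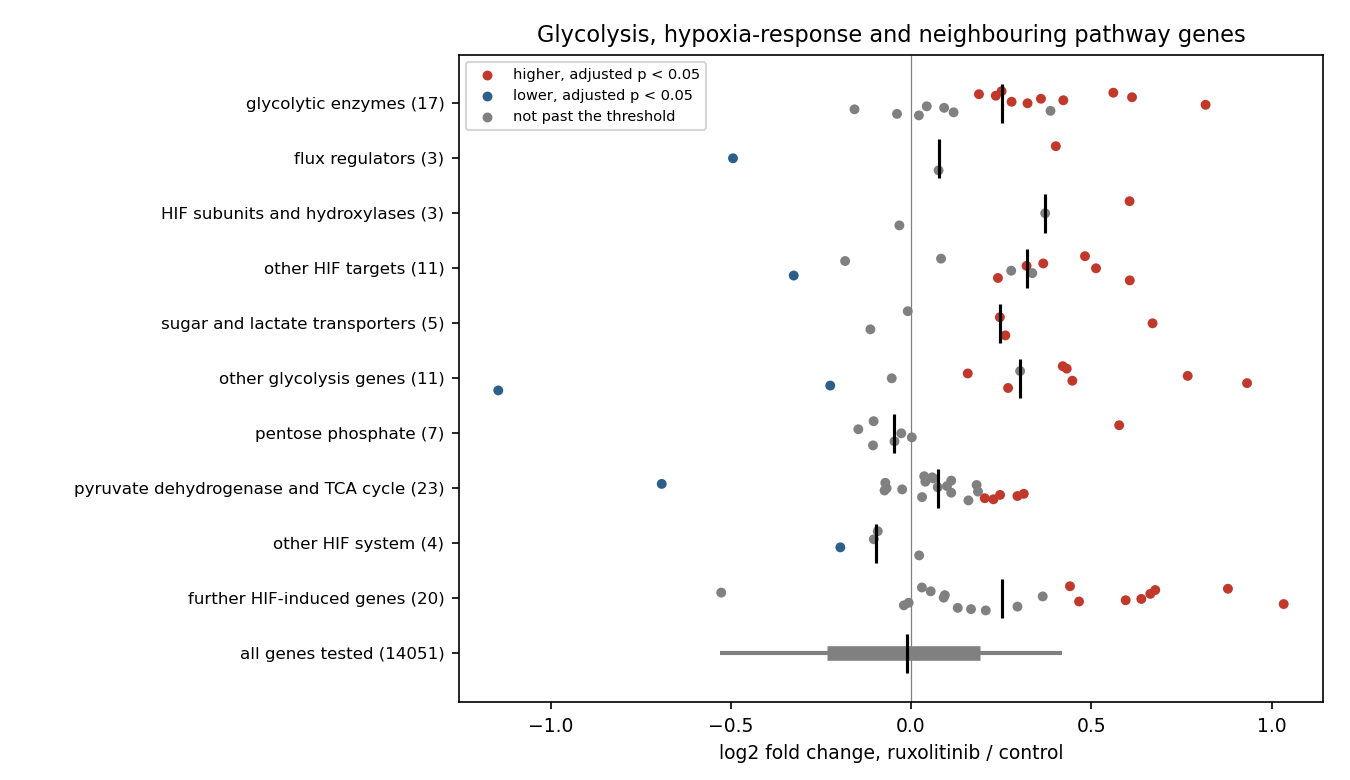
Log2 fold changes (ruxolitinib over control) of the tested genes of each group, 1 point per gene, coloured by call, with the group median as a black bar and the number tested in brackets. The lowest line gives all 14051 genes tested, with the 10th to 90th percentiles (-0.53 to 0.42) as a thin bar, the middle quartiles (-0.23 to 0.19) as a thick bar and the median of -0.01; the medians of the glycolytic enzymes (0.25) and other HIF targets (0.32) lie to its right.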

How the data were processed

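Poly-A RNA was sequenced from 6 THP-1 libraries, 3 with ruxolitinib and 3 control, grouped by their titles. The deposited table holds raw whole-number counts for each gene, the genome build being hg38 per the submitters' processing notes. Not given in the sources used here were the aligner, counter, annotation release and strand setting, so reads of overlapping antisense genes cannot be told apart. Rows named as antisense or divergent partners of members held at most 0.269% of the member's counts, and processed pseudogenes named after members at most 0.240%.

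Counts were filtered with filterByExpr (minimum count 10, minimum total 15), scaled by TMM and tested with edgeR 4.0.16 in R 4.3.3 (glmQLFit and glmQLFTest, robust, group only, threshold 0.05). CPM are over TMM-scaled totals, with SD over 3 libraries. SE come from the coefficient and its F statistic. Within-batch differences use log2 CPM with a prior count of 2. Exon lengths and transcript GC came from GENCODE 29, and promoters from RefSeq on GRCh38.p14. The procedure was also run on simulated counts, with far fewer changed genes than were called here and no batch effect. That run does not measure its error in these data. Alternatives were median-ratio, upper-quartile and total-count scaling, no filter, DESeq2 1.42.0, limma-voom (limma 3.58.1), the batch block, leaving out each library or batch pair, and adding pseudogene counts. Those for the further lists were added after seeing the data.

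The labels' batch numbers pair 1 ruxolitinib with 1 control library. Deviations of paired libraries correlated at -0.02, -0.19 and -0.10, and only the label supplies the pairing. Named genes are the 36 members and, per further list, the 3 with the smallest adjusted p. Some genes of the further lists are not reported here. Members and lists were chosen with earlier results of these data known.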

Additional observations from a re-analysis of the deposited data

How the results depend on the processing

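Over 17 alternatives, 545 of 578 values of the 34 tested members kept direction and call, 9 lost a call, 15 gained one and 9 turned sign. Members that rose numbered 14 to 22 and those that fell 2 to 3, and when single libraries were left out 16 to 20 and 2. The median log2 fold change ranged from 0.22 to 0.29 for glycolytic enzymes, 0.25 to 0.36 for other HIF targets and -0.09 to 0.02 for all genes. Without both batch 1 libraries, 840 of all genes rose and 1143 fell, 1 transporter and 1 TCA gene rose, and 0 further glycolysis genes and 0 further HIF system genes fell. Without both batch 2 libraries, 2 regulator or HIF system members, 1 transporter, 1 further glycolysis, 1 pentose phosphate and 0 further HIF system genes fell. Over all 14124 genes tested there, 2553 rose and 2481 fell. The HIF system count was also 0 without batch 3, where 1592 of all 14170 genes tested fell. Upper-quartile scaling gave 8 TCA rises and 0 HIF system falls, library totals alone 1 transporter and 2 pentose phosphate falls, and DESeq2 1 further glycolysis and 0 HIF system falls. Over all genes tested, upper-quartile scaling gave more rises and fewer falls than the main edgeR test. Library totals alone gave more falls over all genes, and DESeq2 fewer. With the batch as a block, PKM and HIF1AN lost their calls and 1 further glycolysis gene fell; no other call of a member or named gene changed. With single libraries left out, further glycolysis falls were 1 to 2, TCA rises 2 to 6 and HIF system falls 0 to 1. Rises over all genes were then 1321 to 2094 and falls 1620 to 2172. Sign turns were all in genes that did not pass. HIF1A was 0.0028 with upper-quartile scaling, 0.062 without batch 3 and -0.098 to 0.027 with single libraries left out (positive without replicate 3 of either group). HK1 was -0.014 with library totals alone, -0.013 without batch 2 and -0.00048 to 0.061 with single libraries left out. HK2 was 0.017 without batch 3 and CA12 0.095 without batch 2. EGLN2 was 0.14 without batch 2 and -0.19 to 0.064 with single libraries left out. The cause of these changes was not tested.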
